A study of Mus musculus with 12 samples.

Results

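Chemokines and their receptors were followed across the cell classes of the mouse lung and across bleomycin injury and NVP-BHG712 treatment. The set holds the 66 gene identifiers, of 31053 in the count matrices, whose symbol follows the systematic nomenclature of this family (Ccl, Cxcl, Xcl or Cx3cl for ligands, Ccr, Cxcr, Xcr, Cx3cr or Ackr for receptors, each followed by a number). Of these, 65 are described here. They carry 60 distinct symbols, and 44 identifiers are ligands and 21 are receptors. The rule itself reads names and no measured value. Nuclei came from the frozen lungs of 12 wild-type C57BL/6J mice, 1 library per mouse and 3 mice per group. PBS_vehicle and PBS_NVP mice received PBS into the trachea, and Bleo_vehicle and Bleo_NVP mice received bleomycin, which damages alveolar epithelium and leads to fibrosis. After instillation the NVP groups were given NVP-BHG712, a small-molecule inhibitor of the receptor tyrosine kinase EphB4, and the vehicle groups its carrier. All 4 groups shared the strain, and no group carried a transgene or deletion. By the study's methods, all were 7 weeks old at instillation, the bleomycin dose was 1.2 U/kg, gavage with inhibitor or carrier began on day 5 and went on daily for 5 days, and lungs were taken on day 14. The question of the study was the effect of EphB4 inhibition on fibrosis, and the comparisons here ask how the chemokine system differed between the groups.

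Chemokines are small secreted proteins that attract cells bearing matching receptors, and most receptors signal through inhibitory G proteins to direct migration. Inflammatory ligands such as Ccl2 draw monocytes and other leukocytes into injured tissue, while homeostatic ligands such as Cxcl12 and Ccl21a guide cells along vessels and lymphatics. Atypical receptors, named Ackr, bind chemokines without classical G protein signalling and remove or redistribute them. In the lung, recruited monocytes that bear Ccr2 are a known source of macrophages after injury, and alveolar epithelium, macrophages and endothelium each release their own set of ligands.

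A unique molecular identifier (UMI), the unit of every value here, marks 1 captured RNA molecule. Of the 65 identifiers, 56 had at least 1 UMI in the 44611 nuclei kept (35 ligands and all 21 receptors), 44 had at least 20 and 12 had 1 to 19. The 9 without a UMI were both identifiers of Ccl27, Ccl21b and Ccl21c, Ccl27b, and second identifiers of Ccl19 and Ccl21a. Of these, 7 lie on unplaced scaffolds, and they are near-identical copies of genes on chromosome 4, so the values of Ccl19 and Ccl21a are uncertain, since reads that fit several copies cannot be given to 1 of them. All 65 could be placed in GENCODE M21 on GRCm38. Chromosome 11 holds 12 ligands, chromosome 5 holds 10 ligands and chromosome 9 holds 12 receptors. Several members overlap another gene: Ccl25 lies opposite Elavl1, Cxcl16 opposite Zmynd15 and Ccl27a opposite Il11ra1, and the annotated span of Cx3cr1 covers Gorasp1, Csrnp1 and Xirp1 on its own strand. Whether counting used strand is not given in the sources used here, so part of their UMIs could belong to the partner.

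Kept UMIs ranged from 3521537 to 46457084 per library. The 3 Bleo_vehicle libraries stood apart in the median mitochondrial share of UMIs per nucleus, with 1.62%, 1.18% and 0.682% against at most 0.0472% in the other 9. Bleo_NVP libraries carry sequencing run number 4, PBS libraries run numbers 1 to 3, and Bleo_vehicle libraries a batch label instead. Batch and group therefore cannot be told apart in any comparison with a bleomycin group. Of the barcodes kept, 272 occurred in more than 1 library. Nuclei were clustered without the members of the set and named from marker genes, which gave 20 named classes, to be read as type 2 pneumocyte-like (AT2), fibroblast-like and so on. AT2 nuclei matched 10 of 10 markers, alveolar macrophages 8 of 10 and 7 of 10 in their 2 clusters, interstitial macrophages 8 of 9, venous endothelium 7 of 8 and lymphatic endothelium 8 of 8. Club nuclei matched 4 of 8 and 7 of 8 in their 2 clusters, arterial endothelium 5 of 8 and Monocytes 6 of 10. The 2 alveolar fibroblast clusters matched 7 of 9 and 4 of 9, and the fibroblast cluster led by Agtr1b 3 of 10. In 11 classes every group had at least 2 libraries with 20 or more nuclei, and these classes were tested between groups.

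**Figure D1:**
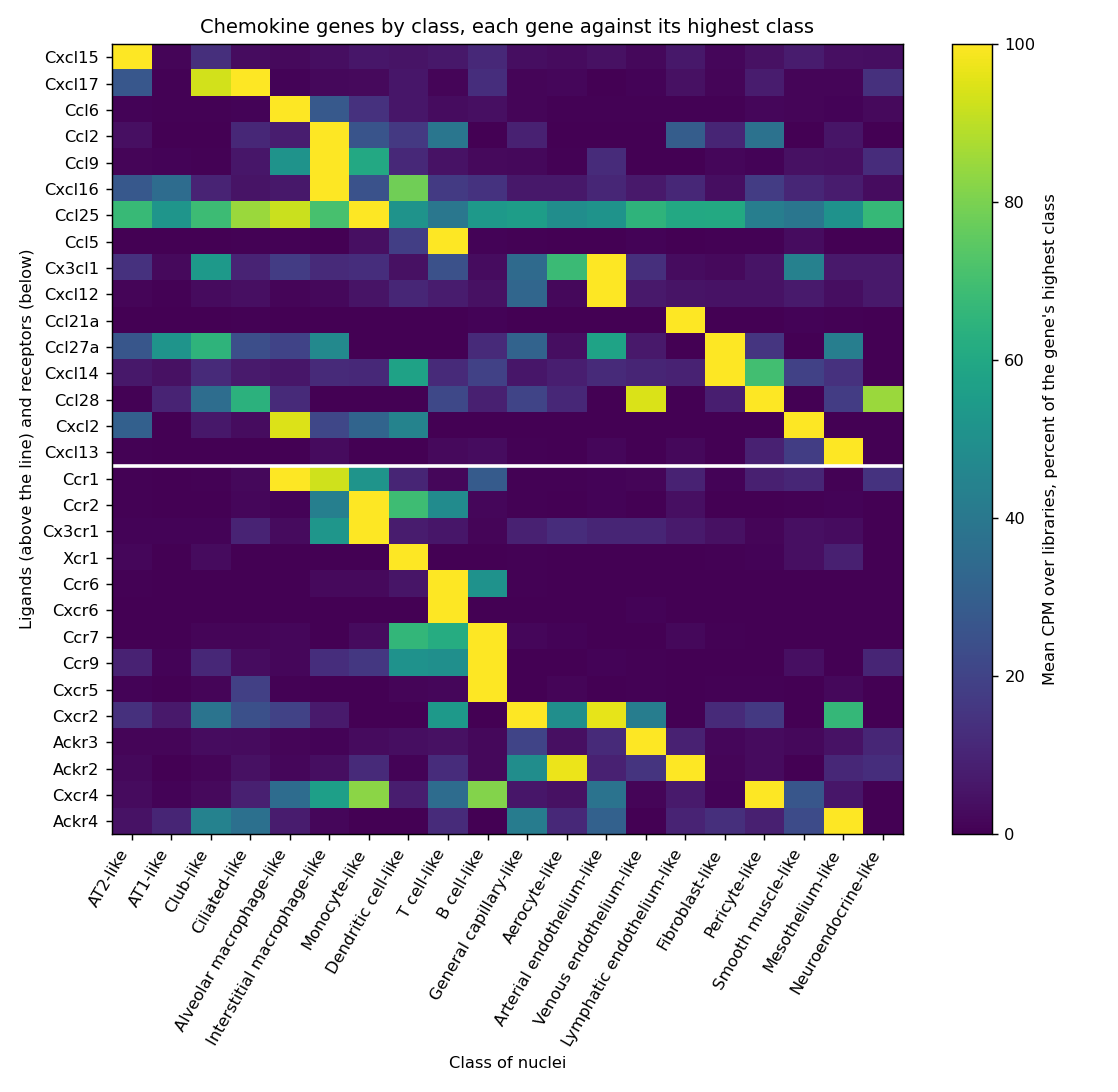
Mean level of each member with at least 60 UMIs (rows, ligands above the white line and receptors below) in each class of nuclei (columns), as a percent of that gene's highest class, so that colours compare classes within a gene and not genes with each other. Cxcl15 is brightest in AT2, Ccl6 in alveolar macrophages, Ccl21a in lymphatic endothelium and Ackr3 in venous endothelium, while Ccl25 is spread over nearly all classes.

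Alveolar and airway epithelium carried Cxcl15 and Cxcl17. Levels in this and the next paragraphs on classes are in CPM, a gene's UMIs scaled to the total UMIs of a class, as means over the libraries of all groups with at least 20 nuclei of that class. They are not corrected for transcript length, so each gene is compared only with itself across classes. Cxcl15, also called lungkine, is an ELR-bearing chemokine of lung epithelium that attracts neutrophils. It had 13818 UMIs, and 64.1% of them lay in AT2 nuclei, where its level was 689 CPM ± 266 (SD, n = 12 libraries). The class with the next highest level, Club cells, had 93.9 CPM ± 48.5 (SD, n = 12), and AT2 was highest in 12 of 12 libraries. Cxcl17, a mucosal chemokine, was measured at 78.9 CPM ± 24.4 in Ciliated and 73.5 CPM ± 19.2 in Club nuclei (SD, n = 12 each), which did not differ beyond their spread, and at 21.3 CPM ± 6.23 in AT2. Cxcl16, a membrane-bound ligand of Cxcr6, was at 83.7 CPM ± 48.8 (SD, n = 11) in interstitial macrophages and 29.7 CPM ± 10.0 (SD, n = 12) in type 1 pneumocytes (AT1), the class that held 39.5% of its 2217 UMIs. Ccl25, the ligand of Ccr9, had 7822 UMIs with no class standing out. Its level lay between 69.6 and 82.1 CPM in the 3 highest classes, Ciliated, alveolar macrophage and Monocyte.

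Cxcl15 lies at chr5:90794534-90803067 (GRCm38, plus strand) in a cluster of ELR-bearing ligands with Cxcl5, Cxcl3, Cxcl1 and Cxcl2. The other 4 had 19, 18, 39 and 84 UMIs. The 250 bases before the start of Cxcl15, Cxcl1 and Cxcl2 (RefSeq, GRCm38.p6, plus strand, chr5:90794284-90794533, chr5:90890995-90891244 and chr5:90903649-90903898) are shown because Cxcl15 held nearly all UMIs of these 5 genes. In capitals are TATAAA in Cxcl15, and in Cxcl1 and Cxcl2 the letters that match a core of the NF-kB motif (GGGA, any 2 letters, then TTCC) on either strand.
Cxcl15: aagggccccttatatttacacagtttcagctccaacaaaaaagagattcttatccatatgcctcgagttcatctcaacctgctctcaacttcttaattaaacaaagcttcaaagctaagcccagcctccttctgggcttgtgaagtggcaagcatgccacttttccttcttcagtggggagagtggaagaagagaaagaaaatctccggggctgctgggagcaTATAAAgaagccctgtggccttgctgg
Cxcl1: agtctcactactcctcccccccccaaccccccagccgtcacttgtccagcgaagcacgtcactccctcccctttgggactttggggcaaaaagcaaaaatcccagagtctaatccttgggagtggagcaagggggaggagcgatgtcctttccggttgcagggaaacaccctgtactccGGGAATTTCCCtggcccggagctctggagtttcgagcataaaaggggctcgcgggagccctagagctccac
Cxcl2: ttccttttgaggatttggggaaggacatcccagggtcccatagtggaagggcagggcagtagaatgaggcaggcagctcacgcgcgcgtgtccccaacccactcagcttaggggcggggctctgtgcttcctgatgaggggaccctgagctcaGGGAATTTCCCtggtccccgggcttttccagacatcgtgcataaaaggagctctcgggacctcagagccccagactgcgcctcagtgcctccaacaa
The match to the NF-kB core begins 71 bases before the start in Cxcl1 and 97 bases before it in Cxcl2, and the Cxcl15 window holds none. TATAAA begins 27 bases before the start of Cxcl15. Of 33 ligand windows, 5 (15.2%) held the NF-kB core on either strand, namely those of Ccl1, Cxcl1, Cxcl10, Cxcl2 and Cxcl3. For receptors this was 1 of 19 windows (5.26%), that of Ccr3, and over all 32851 windows of the same length 1.21%. TATAAA was found in 30.3% of ligand, 21.1% of receptor and 12.4% of all windows on either strand. The motifs are different strings and were counted separately. A match is a string of letters and was not tested as a binding site.

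Macrophages carried Ccl6 and Ccl9. Ccl6, a CC chemokine of rodent macrophages, had 9473 UMIs, 79.0% of them in alveolar macrophages at 596 CPM ± 296 (SD, n = 12), and interstitial macrophages followed at 166 CPM ± 114 (SD, n = 11). Alveolar macrophages were the higher of these 2 classes in 10 of the 11 libraries with enough nuclei of both. Its neighbour Ccl9 had 390 UMIs, of which 146 were in interstitial and 138 in alveolar macrophages. Interstitial macrophage nuclei also carried alveolar macrophage markers, so the split of UMIs between these 2 classes is approximate. The classical inflammatory ligands gave few UMIs in these nuclei. Ccl2, Ccl7 and Ccl12, which bind Ccr2, had 87, 47 and 20 UMIs, with their highest mean levels in interstitial macrophages, and Ccl3, Ccl4 and Ccl5, inflammatory CC chemokines that attract leukocytes, had 27, 25 and 99. Ccl5 was highest in T cells, with 46 of its UMIs there. Cxcl9 and Cxcl10, the interferon-induced ligands of Cxcr3, had 9 and 38 UMIs.

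Vessels and stroma carried the homeostatic ligands. Cxcl12, the ligand of Cxcr4 and Ackr3, was at 171 CPM ± 111 (SD, n = 10) in arterial endothelium and 56.2 CPM ± 20 (SD, n = 12) in general capillaries, and arterial endothelium was highest in all 10 libraries where both could be measured. Cx3cl1, a membrane-bound ligand of Cx3cr1, was at 27.1 CPM ± 21.9 (SD, n = 10) in arterial endothelium and 18.5 CPM ± 8.72 (SD, n = 12) in aerocytes, the capillary cells of gas exchange, which overlap in spread. Ccl21a, which guides Ccr7-bearing cells into lymphatics, had 432 of its 646 UMIs in lymphatic endothelium at 476 CPM ± 550 (SD, n = 7). Ccl19, the other Ccr7 ligand, had 6 UMIs. Among stromal ligands, 663 of the 960 UMIs of Cxcl14 were in fibroblasts, and 355 of these lay in the fibroblast state led by Agtr1b and Itgbl1 and 283 in alveolar fibroblasts. Ccl11, the eotaxin, had 23 of 35 UMIs in adventitial fibroblasts, and Cxcl13, a B cell attractant, had 71 of 122 in mesothelium. Ccl27a, which binds Ccr10, had 130 of 260 in fibroblasts.

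Several receptors were highest in myeloid classes. Ccr2, the receptor for Ccl2, and Cx3cr1, which marks patrolling monocytes and resident phagocytes, were highest in Monocytes, at 241 CPM ± 161 and 124 CPM ± 82.9 (SD, n = 7 each). For Ccr2 the dendritic cells followed at 166 CPM ± 185 (SD, n = 7), within the spread. Ccr1, a receptor of several inflammatory CC ligands, had 488 of 808 UMIs in alveolar and 231 in interstitial macrophages, where its levels of 36.2 and 33.6 CPM did not differ beyond their spread. Cxcr1 had 32 of 41 UMIs in alveolar macrophages. Cxcr2, the neutrophil receptor for Cxcl1, Cxcl2, Cxcl3 and Cxcl5, had 220 UMIs and reached at most 6.40 CPM, in general capillaries. No class of these nuclei was named neutrophil.

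Several receptors had most of their UMIs in lymphocytes. Cxcr6, the receptor of Cxcl16, had 70 of 94 UMIs in T cells, which were its highest class in 8 of 8 libraries, and Ccr8 and Ccr4, the latter binding Ccl17 and Ccl22, had 20 of 27 and 16 of 30 there. Cxcr5, the receptor of Cxcl13, had 123 of 289 UMIs in B cells and a further 101 in Ciliated nuclei. Ccr7 had 31 UMIs in B cells, 38 in dendritic cells and 28 in T cells, of 144 in all. Xcr1, which marks cross-presenting dendritic cells, had 34 of 63 UMIs in dendritic cells, where Ccl22 had 23 of 43 and Ccl17 had 11 of 35. The ligand of Xcr1, Xcl1, had 3 UMIs, all in T cells, and Cxcr3 had 19, of which 8 were in T cells. Cxcr4 was highest in pericytes, at 37.5 CPM ± 27.4 (SD, n = 8), and its levels in Monocytes (31.0 CPM) and B cells (30.6 CPM) lay within that spread.

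The atypical receptors Ackr3 and Ackr2 were highest in vessel classes. Ackr3, which removes Cxcl12, was at 259 CPM ± 67.4 (SD, n = 12) in venous endothelium, the highest class in 12 of 12 libraries, and at 53.3 CPM ± 29.2 (SD, n = 12) in general capillaries. Ackr2, which degrades inflammatory CC chemokines, had similar levels in lymphatic endothelium and aerocytes, 42.4 CPM ± 31.1 (SD, n = 7) and 41.1 CPM ± 16.8 (SD, n = 12), and aerocytes held 375 of its 894 UMIs. Ackr4, which removes Ccl19 and Ccl21a, had 154 UMIs and Ackr1, known from venules and red cells, had 9, of which 4 were in venous endothelium. Cxcl12 and its scavenger Ackr3 thus had their highest levels in different vessel classes, arteries and veins.

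Groups were compared first in whole-lung sums, the UMIs of all kept nuclei of a library, with the quasi-likelihood test of edgeR. In these comparisons, CPM of a tested sum is scaled by the library's TMM factor, so it can differ slightly from the class levels above. A gene is called where its p-value, adjusted by the Benjamini-Hochberg method over all 14442 genes tested, is under 0.05. Of the 65 identifiers, 20 passed the filter on low counts (11 ligands and 9 receptors), while 24 others with at least 20 UMIs did not. Between Bleo_vehicle and PBS_vehicle edgeR called 0 of 20, where 2.44% of all genes tested were called in either direction, with 5 at an unadjusted p under 0.05 and 0 called by DESeq2. Between Bleo_NVP and Bleo_vehicle it called 0 of 20 against 5.51% of all genes, with 8 at an unadjusted p under 0.05, and DESeq2 called 3, of which Ackr3 and Ccr2 are among the 20 and Ccl2 is not. The share of all genes that DESeq2 called is not given here. Between PBS_NVP and PBS_vehicle edgeR called 0 of 20 (0% of all genes), with 0 at an unadjusted p under 0.05 and 0 called by DESeq2. Between Bleo_NVP and PBS_NVP it called 0 of 20 (0% of all genes), with 1 at an unadjusted p under 0.05, Ccl21a, and 0 called by DESeq2. The interaction (the inhibitor's effect under bleomycin minus that under PBS) was called for 0 of 20 members (0.298% of all genes), with 4 at an unadjusted p under 0.05 and 0 called by DESeq2.

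The median log2 change of the 20 members was 0.51 between Bleo_vehicle and PBS_vehicle, beside 0.0066 over all genes tested, and -0.67 between Bleo_NVP and Bleo_vehicle, beside -0.048. For the 9 receptors these medians were 0.78 and -1.11, and for the 11 ligands 0.24 and -0.36. The pair of comparisons shares the Bleo_vehicle libraries, so their opposite signs are not independent. At an unadjusted p under 0.05 stood 5 of 20 members in the first comparison (18.6% of all genes) and 8 of 20 in the second (25.6% of all genes). The libraries of the 2 groups did not overlap for 8 of 20 members in the first (7 higher and 1 lower, beside 20.3% of all genes in either direction) and for 8 in the second (all lower, beside 32.9%). Between PBS_NVP and PBS_vehicle, Cxcl17 and Ccr9 were higher without overlap (2 of 20, beside 3.07% of all genes), and between Bleo_NVP and PBS_NVP 0 of 20 were without overlap (11% of all genes).

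**Figure D2:**
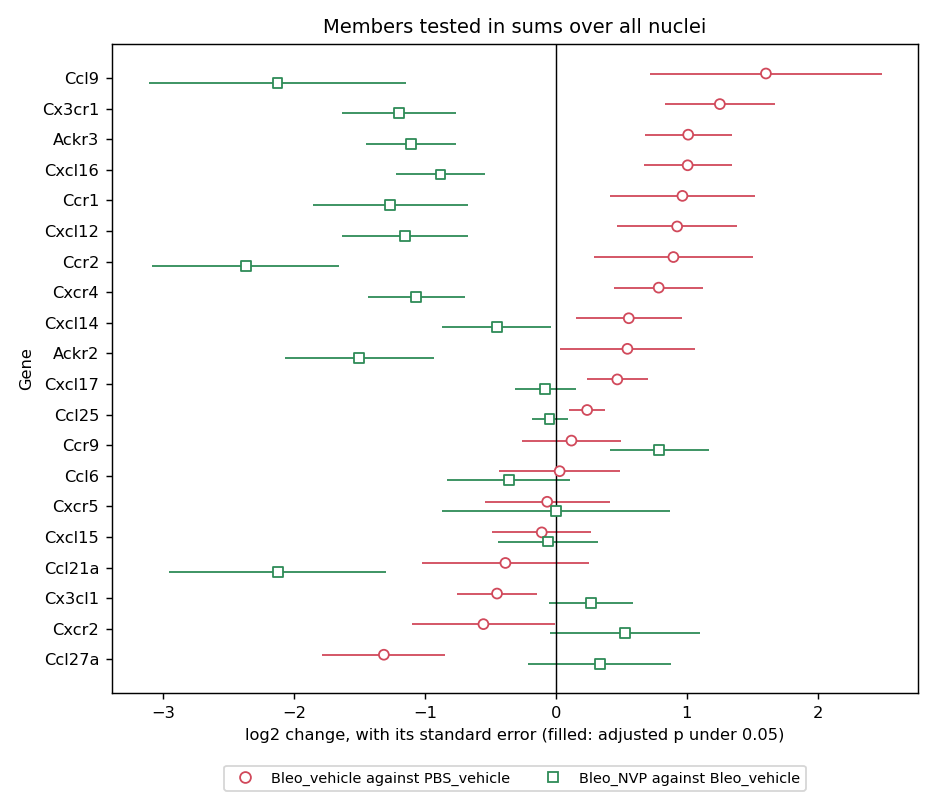
Log2 change of the 20 members tested in whole-lung sums, with its standard error, for Bleo_vehicle against PBS_vehicle and for Bleo_NVP against Bleo_vehicle, which share the Bleo_vehicle libraries. Filled points would mark an adjusted p under 0.05 and none is filled; Ccr2 lies at 0.90 and -2.37, while Cxcl15, Ccl6 and Ccl25 lie near 0 in the first.

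Ccr2, Cx3cr1 and Ccr1 were higher on average in Bleo_vehicle than in PBS_vehicle and Bleo_NVP, and edgeR called none of them. Ccr2 was at 8.58, 4.23 and 1.27 CPM in PBS_vehicle, 10.4, 5.84 and 12.0 CPM in Bleo_vehicle and 1.48, 1.95 and 1.92 CPM in Bleo_NVP. The Bleo_NVP libraries lay close together and below all Bleo_vehicle libraries, and the log2 change was -2.37 ± 0.71 (SE; edgeR adjusted p = 0.0715). It was called by DESeq2 (adjusted p = 0.0103) and by edgeR fitted to the libraries of these groups alone (adjusted p = 0.0216). The Bleo_NVP levels of Ccr2 rest on 5, 13 and 10 UMIs. Of the 10 in replicate 3, 4 came from 1 T cell nucleus, without which the level of 1.92 would be 1.15 CPM. Between Bleo_vehicle and PBS_vehicle the Ccr2 libraries overlapped, with a change of 0.90 ± 0.61 (edgeR adjusted p = 0.459). Cx3cr1, at 5.37, 3.53 and 4.03 CPM in PBS_vehicle, 17.7, 6.14 and 8.81 CPM in Bleo_vehicle and 2.67, 5.84 and 4.81 CPM in Bleo_NVP, did not overlap in either comparison. In Bleo_vehicle replicate 1, 24 of its 71 UMIs came from 1 fibroblast nucleus, and without that nucleus the level of 17.7 would be 11.7 CPM. The changes of 1.25 ± 0.42 and -1.198 ± 0.43 had edgeR adjusted p-values of 0.142 and 0.113. Ccr1 was at 5.08, 3.53 and 1.06 CPM in PBS_vehicle, 8.70, 6.06 and 5.92 CPM in Bleo_vehicle and 1.78, 5.09 and 1.15 CPM in Bleo_NVP, again without overlap, with changes of 0.97 ± 0.55 and -1.27 ± 0.59 (edgeR adjusted p = 0.378 and 0.202). In whole-lung sums, fewer cells of a type and less RNA per cell cannot be told apart. Cxcr2 and Cxcr5 overlapped in both comparisons, and so did Ccr9, whose change with the inhibitor was 0.79 ± 0.38 (SE; edgeR adjusted p = 0.212).

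**Figure D3:**
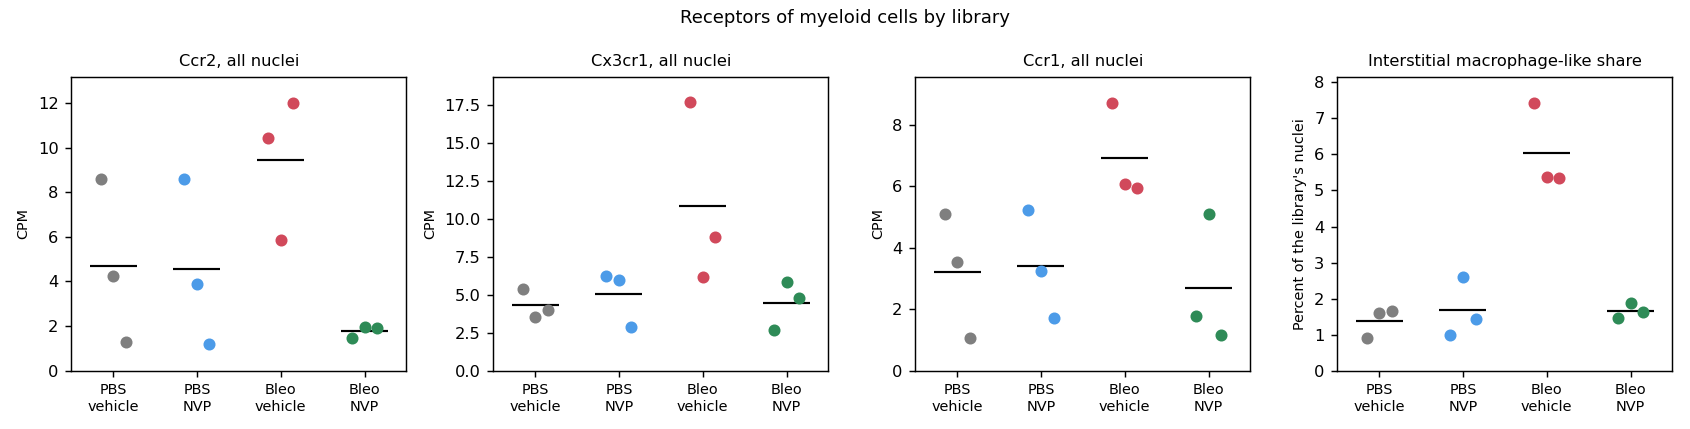
Ccr2, Cx3cr1 and Ccr1 over all nuclei, in CPM, and the share of interstitial macrophages among the nuclei of each library in percent, 1 point per library and a bar at each group mean. The shares of interstitial macrophages in the 3 Bleo_vehicle libraries (7.43%, 5.37% and 5.35%) lie above all others. Cx3cr1 over all nuclei in these libraries lies above PBS_vehicle and Bleo_NVP, and most of its UMIs there lay outside interstitial macrophages.

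Interstitial macrophages, which carry Ccr1 and Cx3cr1, made up a larger share of nuclei in Bleo_vehicle, 7.43%, 5.37% and 5.35%, than in PBS_vehicle (0.902%, 1.61% and 1.66%), PBS_NVP (0.998%, 2.61% and 1.44%) and Bleo_NVP (1.46%, 1.87% and 1.64%). The summed whole-lung level of their 9 markers was 75.9 to 99.4 CPM in PBS_vehicle, 152 to 277 CPM in Bleo_vehicle and 79.9 to 91.9 CPM in Bleo_NVP. Of 8 markers tested, 5 rose with bleomycin (among them C1qa, C1qb, C1qc and Lgmn) and 6 fell with the inhibitor (among them the same 4 and Ms4a7). In Bleo_vehicle, the 10 alveolar macrophage markers summed to 3008 to 3534 CPM in interstitial and 4316 to 6833 CPM in alveolar macrophage nuclei. The 9 interstitial markers summed to 1062 to 1192 and 214 to 427 CPM in the same order, so the 2 classes are not cleanly separated. In Bleo_vehicle, interstitial macrophages held 12 of 71, 9 of 81 and 88 of 418 Cx3cr1 UMIs, so most lay in other nuclei. They held 16 of 42, 34 of 77 and 266 of 569 Ccr2 UMIs in the same libraries. The part of these nuclei in the whole-lung receptor levels was not tested.

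Along the Cxcl12 axis, all 3 members were higher in Bleo_vehicle than in both its comparison groups on average. Ackr3 was at 11.8, 12.6 and 7.21 CPM in PBS_vehicle, 25.6, 21.8 and 17.8 CPM in Bleo_vehicle and 7.71, 11.7 and 10.2 CPM in Bleo_NVP. The Bleo_vehicle libraries lay above all the others, and its changes were 1.01 ± 0.33 and -1.11 ± 0.34 (edgeR adjusted p = 0.134 and 0.0746). The change with the inhibitor was called by DESeq2 (adjusted p = 0.0282) and by edgeR on the libraries of these groups alone (adjusted p = 0.0463). Cxcr4 was at 3.62, 2.12 and 2.12 CPM in PBS_vehicle, 6.47, 4.09 and 4.00 CPM in Bleo_vehicle and 2.96, 1.65 and 2.31 CPM in Bleo_NVP, also without overlap, with changes of 0.78 ± 0.34 and -1.07 ± 0.37 (edgeR adjusted p = 0.242 and 0.102). Cxcl12 itself overlapped, at 10.7, 8.75 and 3.60 CPM in PBS_vehicle, 25.6, 14.3 and 7.19 CPM in Bleo_vehicle and 6.22, 5.54 and 8.65 CPM in Bleo_NVP. Ackr2 was at 7.96, 7.28 and 5.63 CPM in Bleo_vehicle and 1.78, 3.15 and 2.12 CPM in Bleo_NVP, without overlap, with a change of -1.50 ± 0.57 (edgeR adjusted p = 0.129), called on the libraries of these groups alone (adjusted p = 0.0499) and not by DESeq2 (adjusted p = 0.0720).

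By class, Cxcl12 and Ackr3 were higher in the fibroblasts of Bleo_vehicle than in those of the other groups. There edgeR called no change, and DESeq2 called both genes in both comparisons. Both genes could pass edgeR's filter on low counts in fibroblasts through Bleo_vehicle alone, so their tests may not be independent of that level. Cxcl12 in fibroblasts was at 5.32, 1.47 and 0.634 CPM in PBS_vehicle, 42.1, 15.7 and 8.54 CPM in Bleo_vehicle and 0, 2.88 and 5.75 CPM in Bleo_NVP, with a change of 2.65 ± 0.74 (edgeR adjusted p = 0.0683) and of -2.63 ± 0.81 (edgeR adjusted p = 0.0722). Ackr3 in fibroblasts was at 1.89, 4.90 and 0 CPM in PBS_vehicle, 18.1, 7.67 and 8.54 CPM in Bleo_vehicle and 2.02, 0.480 and 2.56 CPM in Bleo_NVP, with changes of 2.16 ± 0.65 and -2.71 ± 0.77 (edgeR adjusted p = 0.0871 and 0.0520). Bleo_vehicle did not overlap the other groups for either gene. General capillaries, which had more Ackr3 than fibroblasts, had 44.5, 35.5 and 26.7 CPM in PBS_vehicle and 157, 62.7 and 64.7 CPM in Bleo_vehicle, a change of 1.07 ± 0.35 that was not called (edgeR adjusted p = 0.107). The summed level of the 8 capillary markers in fibroblasts was 73.4 to 183 CPM in PBS_vehicle, 138 to 200 CPM in Bleo_vehicle and 77.2 to 118 CPM in Bleo_NVP, and its part in these values was not tested. In arterial and capillary endothelium, Cxcl12 overlapped between all groups.

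Among the remaining ligands edgeR called none in whole-lung sums. Cxcl15 was at 103, 53.3 and 64.6 CPM in PBS_vehicle whole-lung sums, 28.1, 71.2 and 104 CPM in Bleo_vehicle and 80.6, 62.1 and 55.6 CPM in Bleo_NVP, with changes of -0.11 ± 0.38 and -0.060 ± 0.38. Ccl6 and Ccl25 had changes of 0.028 ± 0.46 and 0.24 ± 0.14 with bleomycin, and Cxcl17 and Cxcl14 of 0.47 ± 0.23 and 0.56 ± 0.41. Cxcl16 was at 11.9, 10.4 and 12.5 CPM in PBS_vehicle, 39.3, 18.3 and 14.2 CPM in Bleo_vehicle and 16.9, 9.43 and 12.1 CPM in Bleo_NVP. It did not overlap between Bleo_vehicle and PBS_vehicle, with a change of 1.01 ± 0.34 (edgeR adjusted p = 0.141). Cx3cl1 overlapped between these groups, with a change of -0.45 ± 0.30 (edgeR adjusted p = 0.456). Ccl9, at 1.63, 2.40 and 0 CPM in PBS_vehicle, 4.72, 5.61 and 3.14 CPM in Bleo_vehicle and 0, 2.55 and 0 CPM in Bleo_NVP, did not overlap in either comparison (1.60 ± 0.89 and -2.13 ± 0.99, edgeR adjusted p = 0.361 and 0.198). Of its 17 UMIs in PBS_vehicle replicate 2, 12 came from 1 alveolar macrophage nucleus, and of its 17 in Bleo_NVP replicate 2, 14 did. Ccl27a was the 1 member lower without overlap in Bleo_vehicle, at 0.249, 0.606 and 1.26 CPM against 2.60, 1.55 and 2.12 CPM in PBS_vehicle, a change of -1.32 ± 0.47 (edgeR adjusted p = 0.160). Without Bleo_vehicle replicate 3, edgeR called Ccl27a and Cxcl16 with bleomycin. Ccl2 did not pass the edgeR filter on low counts, with 69 UMIs in Bleo_vehicle, 1 in Bleo_NVP, 6 in PBS_vehicle and 11 in PBS_NVP, and 42 of the 69 came from Bleo_vehicle replicate 1. The ratio of its summed level in Bleo_vehicle to that in Bleo_NVP was 16.3, with an exact 95% interval of 2.83 to 652 that covers counting error only. DESeq2, which tested it, called Ccl2 between Bleo_NVP and Bleo_vehicle (adjusted p = 0.0166) and not between Bleo_vehicle and PBS_vehicle (adjusted p = 0.0763).

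Ccl21a was lower in the lymphatic endothelium of Bleo_vehicle than in that of the PBS groups, a difference that was not tested, since a class was fitted only where every group had at least 2 libraries and here no Bleo_NVP library had 20 nuclei. In lymphatic endothelium it was at 1637 and 331 CPM in PBS_vehicle, 648 and 379 CPM in PBS_NVP and 96.1, 56.1 and 181 CPM in Bleo_vehicle, without overlap between Bleo_vehicle and the PBS libraries. The summed level of the 8 lymphatic markers in the same nuclei was 9148 to 10662 CPM in PBS_vehicle, 9416 to 9756 CPM in PBS_NVP and 2924 to 6979 CPM in Bleo_vehicle, so markers and Ccl21a were both lower. In whole-lung sums Ccl21a was at 4.23, 2.96 and 2.63 CPM in Bleo_vehicle and 0.296, 0.599 and 1.15 CPM in Bleo_NVP. These did not overlap, with a change of -2.13 ± 0.83 that was not called (edgeR adjusted p = 0.137). Between Bleo_vehicle and PBS_vehicle the whole-lung change of Ccl21a was -0.32 by DESeq2 and was not called (adjusted p = 0.869). Lymphatic nuclei were 1.43%, 1.01% and 0.750% of nuclei in Bleo_vehicle and 0.171%, 0.719% and 0.440% in Bleo_NVP.

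**Figure D4:**
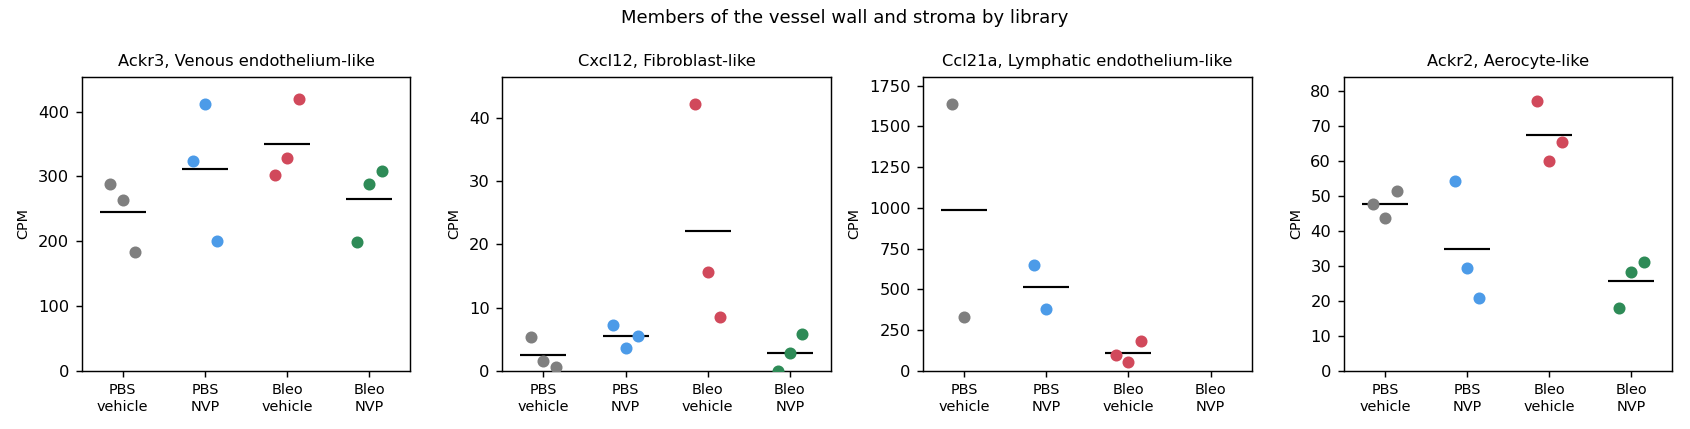
CPM per library of Ackr3 in venous endothelium, Cxcl12 in fibroblasts, Ccl21a in lymphatic endothelium and Ackr2 in aerocytes, in the 4 groups; points are libraries and bars are group means, and libraries with under 20 nuclei of the class are absent. Cxcl12 is higher in the 3 Bleo_vehicle libraries (42.1, 15.7 and 8.54) than in any other, and Ccl21a is lower in Bleo_vehicle (at most 181) than in the 4 PBS libraries (at least 331), with no Bleo_NVP library shown.

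In class sums, 40 pairs of member and class (14 members) passed the filter. The filter needs enough counts in only as many libraries as the smallest group holds, so a gene high in a single group can pass. Between Bleo_vehicle and PBS_vehicle, 4 pairs were called, 3 higher and 1 lower, against 2.73% of the 63482 pairs of gene and class, with 13 at an unadjusted p under 0.05. All 4 were Cxcl15. Between Bleo_NVP and Bleo_vehicle, 4 pairs were called, all lower (3.62% of all pairs), with 12 at an unadjusted p under 0.05, and the interaction was called for 1 pair (0.365% of all pairs), with 10 at an unadjusted p under 0.05. Between PBS_NVP and PBS_vehicle edgeR called 0 pairs (0% of all pairs), with 0 at an unadjusted p under 0.05. Between Bleo_NVP and PBS_NVP it called 0 pairs (0% of all pairs), with 2 at an unadjusted p under 0.05. DESeq2 called 0 pairs in both.

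Cxcl15 fell in AT2 nuclei, the class where its level was highest. In AT2 nuclei it was at 1076, 716 and 818 CPM in PBS_vehicle, 974, 733 and 833 CPM in PBS_NVP, 170, 294 and 610 CPM in Bleo_vehicle and 849, 860 and 665 CPM in Bleo_NVP. The 3 Bleo_vehicle libraries were the lowest of the 12. The log2 change between Bleo_vehicle and PBS_vehicle was -1.21 ± 0.32 (SE; edgeR adjusted p = 0.0429; 1.97% of genes tested in AT2 were called lower), and for Bleo_NVP against Bleo_vehicle it was 1.07 ± 0.33 and not called (edgeR adjusted p = 0.0782). The summed level of the 10 AT2 markers in these nuclei was 14378 to 16633 CPM in PBS_vehicle, 5327 to 12851 CPM in Bleo_vehicle and 14138 to 15326 CPM in Bleo_NVP. Of these markers, 4 of 10 fell with bleomycin (Slc34a2, Lpcat1, Lamp3 and Abca3) and 2 rose with the inhibitor (Lamp3 and Abca3). Leaving out 1 library ended the AT2 call in 10 of 12 cases, with adjusted p-values up to 0.192, while the change stayed between -1.88 and -0.93. The call also ended with only the libraries compared (edgeR adjusted p = 0.125), with stricter nuclei (0.0509) and at Leiden resolution 2 (0.0621).

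**Figure D5:**
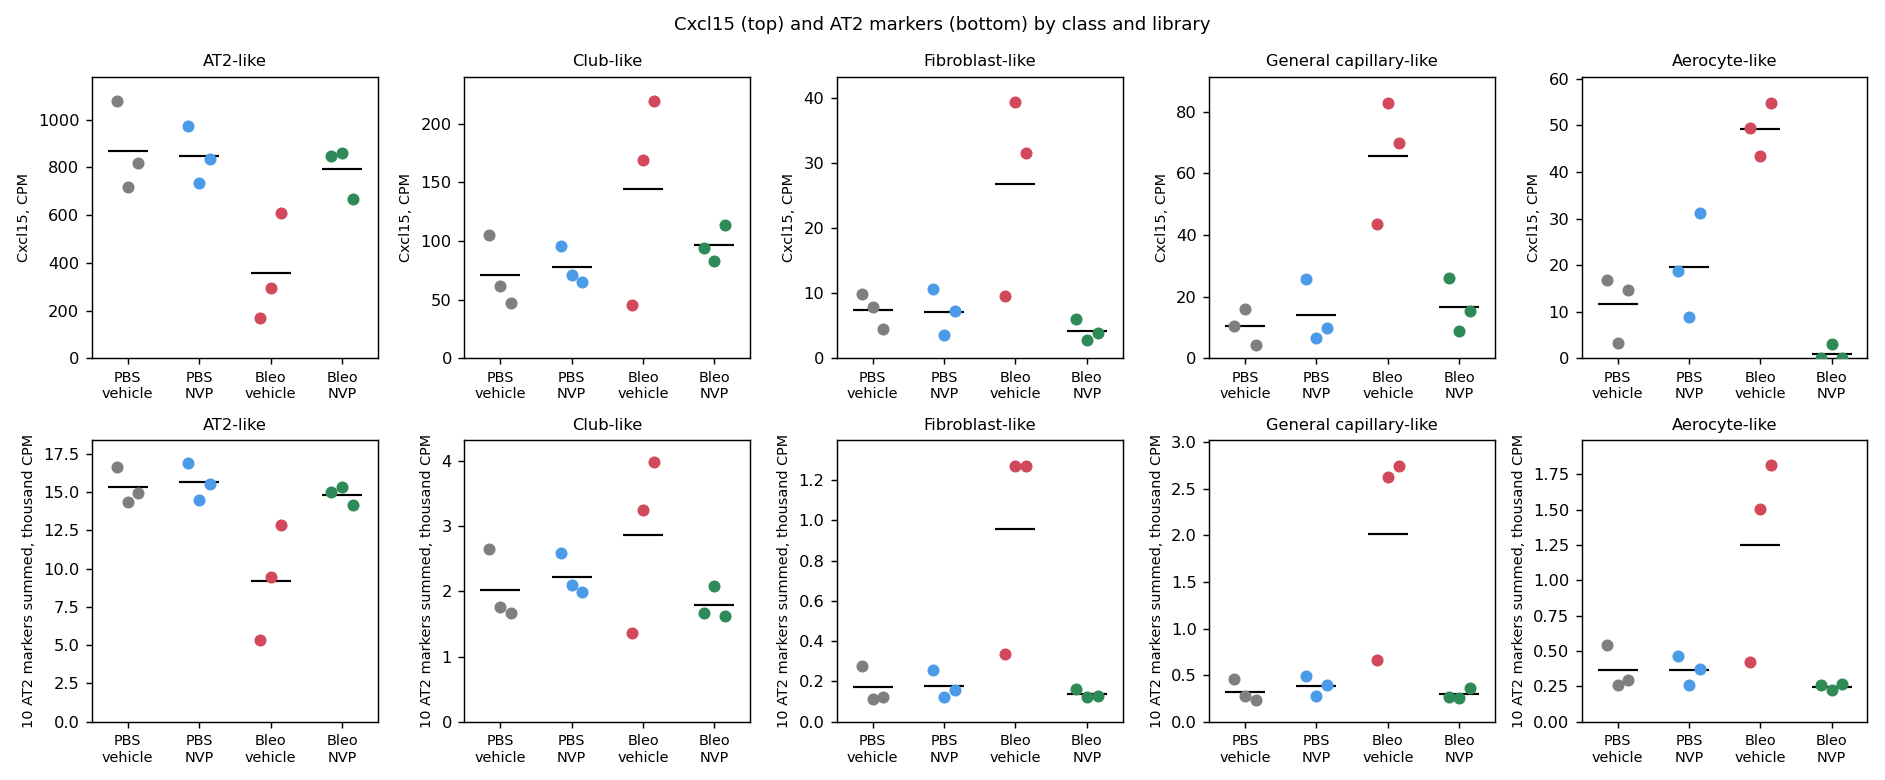
Cxcl15 in CPM (top row) and the sum of the 10 AT2 markers in CPM, scaled as its axis states (bottom row) in AT2, Club, fibroblast, general capillary and aerocyte nuclei, 1 point per library and a bar at each group mean, with a separate axis per panel. Bleo_vehicle libraries are the lowest in AT2 (170 to 610 CPM of Cxcl15) and above the PBS_vehicle libraries in general capillaries (43.7 to 83.0 against 4.45 to 16.0) and aerocytes (43.5 to 54.7 against 3.35 to 16.8), and the mean marker sum of Bleo_vehicle is likewise the lowest of the 4 groups in AT2 and the highest in the other classes shown.

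Outside AT2, edgeR called Cxcl15 higher in Bleo_vehicle than in PBS_vehicle in general capillaries, fibroblasts and Club nuclei. It was also tested in AT1 and Ciliated nuclei, where it was not called. In general capillaries it was at 10.6, 16.0 and 4.45 CPM in PBS_vehicle, 43.7, 83.0 and 70.0 CPM in Bleo_vehicle and 26.0, 8.96 and 15.2 CPM in Bleo_NVP, without overlap in either comparison. It rose by 2.61 ± 0.47 with bleomycin (edgeR adjusted p = 0.0024; 3.24% of genes in the class were called higher) and fell with the inhibitor (-2.25 ± 0.53, edgeR adjusted p = 0.0172; 3.63% called lower). Cxcl15 could pass the filter on low counts in this class through Bleo_vehicle alone, so these calls may not be independent of that level. In fibroblasts it was at 9.96, 7.85 and 4.44 CPM in PBS_vehicle, 9.63, 39.3 and 31.6 CPM in Bleo_vehicle and 6.05, 2.88 and 3.84 CPM in Bleo_NVP. The lowest Bleo_vehicle library overlapped PBS_vehicle but not Bleo_NVP. The changes were 1.86 ± 0.46 (edgeR adjusted p = 0.0389; 2.76% called higher) and -2.82 ± 0.54 (edgeR adjusted p = 0.0105; 3.79% called lower). The first call ended without any 1 of 9 of the 12 libraries (edgeR adjusted p up to 0.158), with only the libraries compared (0.111), with stricter nuclei (0.151) and with doublets kept (0.0946), and the second without Bleo_NVP replicate 2 or 3 (up to 0.0637). In Club nuclei it was at 106, 61.8 and 46.9 CPM in PBS_vehicle and 45.5, 169 and 220 CPM in Bleo_vehicle, which overlapped, with a change of 1.199 ± 0.32 (edgeR adjusted p = 0.0450; 2.09% called higher). Leaving out 1 library ended the Club call in 10 of 12 cases (edgeR adjusted p up to 0.253), as did DESeq2 (adjusted p = 0.196) and only the libraries compared (0.146).

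Aerocytes showed the 1 called interaction. Cxcl15 passed the filter on low counts in aerocytes only with the Bleo_vehicle libraries, where it was high. Its calls in this class are not independent of that level. Cxcl15 there was at 16.8, 3.35 and 14.6 CPM in PBS_vehicle, 18.7, 8.80 and 31.2 CPM in PBS_NVP, 49.5, 43.5 and 54.7 CPM in Bleo_vehicle and 0, 3.14 and 0 CPM in Bleo_NVP. Bleo_vehicle lay above every PBS library. Bleo_NVP lay below them only by 3.14 against 3.35 CPM, each the level of about a single UMI, which does not separate these groups. The fall between Bleo_vehicle and Bleo_NVP (fitted log2 change -4.85 ± 0.89, edgeR adjusted p = 0.0042; 1.18% called lower) rests on 140 UMIs against 1, a ratio of levels of 33.8 with an exact 95% interval of 5.97 to 1344 for counting error. The interaction was -5.33 ± 1.11 (edgeR adjusted p = 0.0283; 0.336% called lower). It was no longer called by DESeq2 (-5.36, adjusted p = 0.0952), with doublets kept (-3.18, edgeR adjusted p = 0.319) or without any 1 of 7 of the 12 libraries, among them each Bleo_NVP library. With doublets kept the fall with the inhibitor was not called either (edgeR adjusted p = 0.0561).

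Markers of AT2 cells moved with Cxcl15 in each of these other classes. Their summed level in general capillaries was 234 to 456 CPM in PBS_vehicle, 659 to 2749 CPM in Bleo_vehicle and 251 to 363 CPM in Bleo_NVP, and 5 of 8 tested rose with bleomycin and fell with the inhibitor (Slc34a2, Sftpb, Sftpa1, Sftpd and Sftpc). In fibroblasts the sum was 114 to 277, 334 to 1272 and 124 to 162 CPM in the same order, with 3 of 9 tested called higher and 4 lower. In aerocytes it was 259 to 542, 424 to 1816 and 222 to 264 CPM, with 1 of 7 higher and 2 lower, and in Club nuclei 1671 to 2643, 1356 to 3979 and 1619 to 2081 CPM, with 1 of 10 higher and 1 lower. The surfactant gene Sftpc was among those called with the inhibitor in all 4 classes. Where fewer than 10 were tested, a marker could pass the filter through Bleo_vehicle alone, so the counts do not stand for the list. The part of AT2 RNA in the Cxcl15 values of these classes was not tested. When nuclei needed 500 UMIs and a mitochondrial share of at most 1%, the change in general capillaries was 1.81 and -1.35 and was no longer called (edgeR adjusted p = 0.151 and 0.405). The inhibitor's call there also ended with DESeq2 (adjusted p = 0.0520), without Harmony (edgeR adjusted p = 0.0521) and without Bleo_NVP replicate 2 or 3 or Bleo_vehicle replicate 2 (0.0837 to 0.131).

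Ccl6 in fibroblasts was the 1 other pair called. It passed the filter on low counts only with the Bleo_vehicle libraries, where it was high, so the call is not independent of that level. It was at 3.43, 2.94 and 0.634 CPM in PBS_vehicle, 7.22, 8.95 and 9.53 CPM in Bleo_vehicle and 1.01, 0.480 and 2.56 CPM in Bleo_NVP, with Bleo_vehicle above all the others. It fell with the inhibitor (-2.72 ± 0.75, edgeR adjusted p = 0.0464), and the change with bleomycin, 1.74 ± 0.60, was not called (edgeR adjusted p = 0.131). Leaving out 1 library ended the call in 8 of 12 cases. Of 10 alveolar macrophage markers, 3 could be tested in fibroblasts (Mrc1, Chil3 and Atp6v0d2). All 3 rose with bleomycin and fell with the inhibitor. A marker could pass the filter through Bleo_vehicle alone, so these 3 do not stand for the 10. The summed level of the 10 was 8.49 to 23.8 CPM in PBS_vehicle, 60.9 to 127 CPM in Bleo_vehicle and 10.5 to 13.1 CPM in Bleo_NVP, and its part in the Ccl6 value was not tested. In alveolar macrophages, its main class, Ccl6 ranged from 234 to 1132 CPM in PBS_vehicle and from 240 to 575 CPM in Bleo_vehicle, and overlapped.

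No other pair was called by edgeR. DESeq2 called 8 pairs with bleomycin and 7 with the inhibitor, among them Cx3cr1 in fibroblasts with bleomycin, where 24 of the 38 UMIs in Bleo_vehicle replicate 1 came from 1 nucleus. The share of all pairs that DESeq2 called is not given here, so these counts are not set against it. Ackr2 in aerocytes was at 77.0, 60.01 and 65.5 CPM in Bleo_vehicle and 17.9, 28.2 and 31.2 CPM in Bleo_NVP, without overlap, with a change of -1.27 ± 0.39 (edgeR adjusted p = 0.130). Ackr3 in venous endothelium, its highest class, was at 289, 263 and 183 CPM in PBS_vehicle, 302, 329 and 420 CPM in Bleo_vehicle and 199, 288 and 308 CPM in Bleo_NVP. Bleo_vehicle lay above PBS_vehicle and overlapped Bleo_NVP, with a change of 0.53 ± 0.28 with bleomycin (edgeR adjusted p = 0.786). Ccr2 and Cx3cr1 within interstitial macrophages had changes of -0.58 ± 0.63 and -1.07 ± 0.96 with bleomycin (edgeR adjusted p = 0.803 and 0.748), opposite in sign to their whole-lung values, but without PBS_vehicle replicate 1 the Cx3cr1 change was 0.40.

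Genes around the receptors were counted from lists that do not overlap the set. Of 40 genes of chemokine receptor signalling, all tested in whole-lung sums, 2 rose with bleomycin, beside 1.84% of all genes tested, and 6 fell with the inhibitor, beside 3.55%. Rgs1, which ends G protein signalling in leukocytes, rose by 2.98 ± 0.46 (edgeR adjusted p = 0.0086) from 0.488, 1.27 and 0.424 CPM in PBS_vehicle to 3.98, 7.13 and 5.31 CPM in Bleo_vehicle, and fell to 0.296, 1.048 and 0.769 CPM in Bleo_NVP (-2.85 ± 0.49, edgeR adjusted p = 0.0099). Vav1, a leukocyte exchange factor, rose by 1.32 ± 0.27 (edgeR adjusted p = 0.0318) and fell with the inhibitor (-1.50 ± 0.28, edgeR adjusted p = 0.0144). The other 4 that fell were the kinases and kinase subunits Fgr, Pik3cd, Ptk2b and Pik3r5. Interstitial macrophage nuclei and their markers were higher in Bleo_vehicle in the same way, and their part in these values was not tested. The list's median was 0.13 with bleomycin and -0.32 with the inhibitor. Of 26 genes that bind, cut or induce chemokines, 20 were tested, 1 rose (Mmp12, a macrophage protease, 3.25 ± 0.44, edgeR adjusted p = 0.0043) and 4 fell with the inhibitor (Mmp12, Mmp2, Mmp14 and Il4ra), with medians of 0.44 and -0.31. Mmp12 was at 1.02, 1.13 and 1.48 CPM in PBS_vehicle, 5.97, 12.6 and 13.9 CPM in Bleo_vehicle and 0.593, 1.198 and 1.92 CPM in Bleo_NVP, so Bleo_vehicle lay above the others. Over the 22 alternatives fitted, the fall of Mmp12 was called in 22 and that of Mmp2 in 3. Of 8 family genes whose symbols the naming pattern misses, 5 were tested, and 1 fell with the inhibitor, Cd74, the receptor for Mif (-2.01 ± 0.45, edgeR adjusted p = 0.0268). Cd74 was at 17.7, 65.8 and 86.7 CPM in Bleo_vehicle and 14.8, 17.1 and 10.96 CPM in Bleo_NVP, without overlap.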

How the data were processed

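Single-nucleus RNA-seq of 12 frozen lungs, 1 library per mouse, was made with the 10x 3' kit. The authors deposited UMI counts per gene and nucleus; Cell Ranger 7.0 and Seurat 4.4.1 are named in the submitters' processing notes with build mm10, and 7.2.0 in the file headers. Whether counting used strand is not given in the sources used here. Kept nuclei (44611 of 49163 barcodes) had at least 200 and at most 6000 genes and at most 5% mitochondrial UMIs. Another 2708 nuclei were left out as doublets by Scrublet score, at 0.8% per 1000 nuclei. Clustering used 2000 variable genes without members, 30 principal components, an own implementation of Harmony, and Leiden resolution 1 (scanpy 1.11.5); a name needed 3 markers, each 4-fold over all other nuclei and in at least 5% of nuclei. Of 35 clusters 27 were named.

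Counts were summed per library, and per library and class with at least 20 nuclei. edgeR 4.0.16 (TMM factors, filterByExpr, robust quasi-likelihood fit over all 12 libraries without a block, Benjamini-Hochberg adjustment over all genes of a fit) gave each change; ± is a standard error unless SD is written. DESeq2 1.42.0 was an alternative, and the fits were tested on simulated data. Each library is 1 mouse. Kept UMIs of 3521537 to 46457084 per library set the precision, and counting intervals and UMI counts cover counting error only.

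Named genes were every member called, the 10 ligands and 8 receptors with the highest mean CPM, and fixed ligand and receptor groups; Cxcl11 is not analysed here. Of the 66 members, 1 is not reported here; it stayed in the fits and in the adjustment over all genes, and counts of members leave it out. The members and lists were chosen with earlier results of these data known. Alternatives were RLE factors, DESeq2, no filter, a replicate block, only the libraries compared, a block by run number, stricter nuclei, doublets kept, all barcodes, no Harmony, Leiden resolution 2 and each library left out. Leaving out macrophage nuclei, and a replicate block within the PBS libraries, were added after seeing the data.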

Additional observations from a re-analysis of the deposited data

Results flagged for a closer look

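The inhibitor's effect on Cxcl15 in aerocytes differed between bleomycin and PBS lungs, with an interaction of -5.33 on the log2 scale (edgeR adjusted p = 0.0283). The difference was not called by DESeq2 (adjusted p = 0.0952), with doublets kept, or without any 1 of 7 of the 12 libraries. Cxcl15 passed the filter on low counts in aerocytes only with the Bleo_vehicle libraries, where it was high. In general capillaries it could pass the filter through these libraries alone. The other values are listed because the libraries of the groups compared did not overlap and classes went opposite ways; the difference between classes was not tested. Between Bleo_vehicle and PBS_vehicle, Cxcl15 had log2 changes of -1.21 in AT2 against 1.91 in aerocytes and 2.61 in general capillaries, and Ccl25 of -0.58 in Ciliated against 0.37 in aerocytes and 0.66 in fibroblasts. Between Bleo_NVP and Bleo_vehicle, Cxcl15 had 1.07 in AT2 against -4.85 in aerocytes, -2.82 in fibroblasts and -2.25 in general capillaries.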

How the results depend on the processing

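In whole-lung sums, 0 members were called in each comparison. Between Bleo_NVP and Bleo_vehicle, DESeq2 called 3 (Ackr3, Ccl2 and Ccr2), only the libraries compared gave 3 (Ackr2, Ackr3 and Ccr2), and leaving out both macrophage classes, added after seeing the data, gave 1 (Ccl6). In class sums, the 4 called with bleomycin became 8 with DESeq2, 17 without the filter, 1 with only the libraries compared, 1 with stricter nuclei and 7 without Harmony. The 4 called with the inhibitor became 7 with DESeq2, 13 without the filter, 1 with stricter nuclei and 7 with doublets kept. The 1 called interaction became 9 without the filter, 0 with stricter nuclei, 0 with doublets kept and 3 without Harmony. The cause was not tested, and the shares of all genes or pairs called under these alternatives are not given here. Leaving out 1 library gave, for bleomycin and for the inhibitor, 0 to 2 and 0 to 4 in whole-lung sums, 1 to 7 and 1 to 8 in the class comparisons and 0 to 4 for the interaction. Each count was highest without Bleo_vehicle replicate 3, which in whole-lung sums added Ccl27a and Cxcl16 with bleomycin and Ackr3, Ccr9, Cxcl12 and Cxcl16 with the inhibitor; without PBS_NVP replicate 3 the inhibitor's count was 1 (Ackr3). In class sums the count with bleomycin was 1 without PBS_vehicle replicate 2 or 3 or Bleo_vehicle replicate 2, that with the inhibitor was 1 without Bleo_NVP replicate 2 or 3, and the interaction was 0 without PBS_vehicle replicate 2, PBS_NVP replicate 1 or 3, Bleo_vehicle replicate 2 or any 1 Bleo_NVP library. The counts of 0 for PBS_NVP against PBS_vehicle, for Bleo_NVP against PBS_NVP and for the whole-lung interaction were 0 under each alternative run. Of 120 changes of members with bleomycin or the inhibitor, the 8 that edgeR called kept their direction under each alternative fitted, and 40 that it did not call, between -1.07 and 1.30, reversed under at least 1. Depth limits the 24 members with at least 20 UMIs that could not be tested.

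With the replicate number as a replicate block the counts were 1 (Ackr3) and 3 (Ackr3, Ccr2 and Cxcr4) in the whole-lung comparisons, 6 and 7 in the class comparisons and 2 for the class interaction. Deviations of libraries with the same number correlated between -0.201 and 0.883, over 0.1 in 10 of 18 pairs, so the number was not taken to pair libraries in the comparisons with a bleomycin group. Between PBS_vehicle and PBS_NVP the same-number correlations were 0.641 to 0.883, against -0.720 to 0.0131 for other numbers, and a replicate block within these 6 libraries, added after seeing the data, called 0 members.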
